A study of Mus musculus with 6 samples.

Results

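Intermediate filaments are the rope-like fibres of the cytoskeleton, and the protein that builds them differs from one cell type to the next. Their genes were examined here, 8 in all, in primary cultures of mouse dorsal root ganglia (DRG), the sensory ganglia beside the spinal cord that hold neuron cell bodies and their glia. The genes were picked by symbol, and all 8 were found among the 45703 genes of the count table. Of them, 5 encode neuronal filament proteins (Nefl, Nefm, Nefh, Prph and Ina) and 3 encode proteins known mainly from glia, progenitors, muscle and connective tissue cells (Vim, Nes and Synm). Synm is placed in the second set from background alone, and its values over the libraries, given below, lay closer to the neuron markers by r than to the glial lineage, fibroblast or mural cell markers, a difference that was not tested. All 8 passed the filter on low counts. The study held a single group of 6 replicate cultures, so there was no contrast between conditions, and the values below were compared between genes within a library and between replicate cultures.

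The donors were wild type mice of strain C57BL/6, labelled adult and aged 4 to 6 weeks. Every culture was made by digesting ganglia with the collagenase blends Liberase TH and Liberase TM and plating the cells on poly-L-lysine. The growth medium, used for all 7 days, contained 10% fetal calf serum and the growth factors EGF and FGF, each at 10 ng/ml. RNA of 2 dishes was pooled per sample, and the labels do not say whether the cultures came from separate mice or preparations. The p-values below therefore cover only these samples. Those of permutation tests rest on how the samples vary. The others set the spread between samples against counting noise or against a trend over genes.

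The libraries held 20070639 to 22968642 counts, with 13.4% to 14.7% of the table's cells not whole numbers. No 2 libraries agreed within sampling noise: the median chi-square of a gene between a pair of libraries lay between 2.09 and 6.87, against 0.455 for counting noise alone. Neuronal markers were present in all of them, and all 12 genes of the neuron list reached 1 CPM (a gene's count per 1000000 counts of its library) in each of the 6 libraries. So did all 8 genes of the peripheral glial lineage list, and 13911 of the 14998 genes that passed the filter on low counts. Summed levels ranged from 922 to 1944 CPM for the neuron list, from 4856 to 7103 CPM for the glial lineage list, from 3339 to 13977 CPM for the fibroblast list, from 307 to 2024 CPM for the mural cell list (contractile cells of vessel walls) and from 16.9 to 156 CPM for the macrophage list. Replicates 1 and 5 lay at opposite ends of the fibroblast, mural cell and macrophage lists, with the lowest sums in replicate 1 and the highest in replicate 5. In RNA from mixed cells, fewer cells of a type and less RNA per cell cannot be told apart.

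As background, the neurofilament proteins of light (Nefl), medium (Nefm) and heavy (Nefh) chain co-assemble into the filaments that fill axons and set their calibre. Peripherin (Prph) joins them in peripheral neurons, above all in small sensory neurons, and alpha-internexin (Ina) is best known from central neurons. Vimentin (Vim) is the filament protein of mesenchymal cells, immature Schwann cells and many cells in culture. Nestin (Nes) is known from neural progenitors and Schwann cells, and synemin (Synm) is a large partner that assembles with vimentin or other filament proteins rather than alone. Injury to a peripheral axon is known to change the expression of neurofilament and peripherin genes.

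Per kilobase of exon, the order of the 8 genes was Vim, Nes, Prph, Nefl, Nefm, Nefh, Synm and Ina. Vim averaged 2631 ± 540.3 CPM per kb (SD, n = 6) and Nes 150.8 ± 11.5 CPM per kb. Among the neuronal genes Prph averaged 76.4 ± 24.7 CPM per kb, Nefl 44.4 ± 13.1, Nefm 29.4 ± 10.3, Nefh 8.87 ± 2.98 and Ina 2.68 ± 0.667 (SD, n = 6 for each). Synm lay between Nefh and Ina at 4.94 ± 1.20 CPM per kb. For scale, the median of the 14998 genes tested was 7.20 CPM per kb, so Synm and Ina lay below it and the other 6 genes above it. Each of the 28 pairs of genes kept its order in 6 of 6 libraries. The difference in log2(CPM per kb + 0.1) had an exact sign-flip permutation p of 0.03125 for every pair (two-sided; adjusted over 28 pairs also 0.03125), which is the smallest value that 6 libraries allow. That value follows from an order kept in 6 of 6 libraries and carries no information on the size of a step. Between neighbours in the order, the mean difference was larger than its SD at every step, for example 0.78 ± 0.433 from Prph to Nefl. The narrowest step was that from Nefl to Nefm, a log2 difference of 0.62 ± 0.0978, and the widest was that from Vim to Nes, 4.10 ± 0.271 (SD, n = 6).

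Because the order rests on exon length, the steps between close genes depend on it. Without division by length, Prph exceeded Nefl by 0.25 ± 0.433 on the log2 scale (exact sign-flip permutation, adjusted p = 0.219), and Nefh lay below Synm with a difference of -0.17 ± 0.162 (adjusted p = 0.0648). With the longest GENCODE transcript of a gene in place of its combined exon length, the excess of Nes over Prph was 0.71 ± 0.486 (exact sign-flip permutation, adjusted p = 0.0625).

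**Figure D1:**
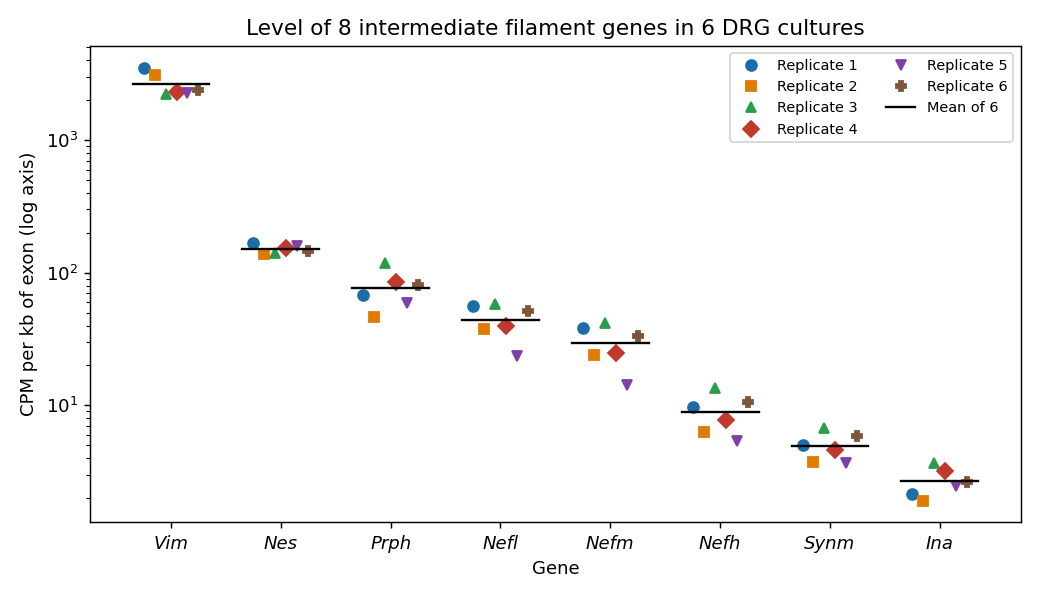
Level of each gene in CPM per kilobase of exon (log axis), 1 symbol per replicate culture and a black bar for the mean of 6. Vim lies between 2214 and 3524 CPM per kb, above every other gene, and Ina lies lowest, between 1.92 and 3.68.

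The neurofilament chains were the first set of neuronal members. Nefl (chromosome 14, 68083863 to 68089095, plus strand, GRCm38.p6), the light chain on which the other chains assemble, stood at 189.7, 127.2, 195.5, 134.1, 80.1 and 173.6 CPM in replicates 1 to 6. Nefm (chromosome 14, 68119545 to 68125004, minus strand), its neighbour across 30.4 kb, stood at 123.4, 77.2, 135.5, 80.0, 45.7 and 107.6 CPM. Replicates 1, 3 and 6 were high and replicate 5 was lowest for both genes. Nefh (chromosome 11, 4938754 to 4948064, minus strand), the heavy chain with a long phosphorylated tail, stood at 38.8, 25.0, 53.6, 31.1, 21.6 and 42.3 CPM. Its highest library was replicate 3 and its lowest replicate 5, as for the other 2 chains.

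The proportion of light to medium chain was the steadiest measure among the neuronal ratios computed. Nefl over Nefm, per kb, was 1.47, 1.58, 1.38, 1.6, 1.67 and 1.54 in replicates 1 to 6, a coefficient of variation of 6.75%, whereas the levels of Nefl and Nefm varied by 29.6% and 35.2%. Nefm exceeded Nefh by 3.30 ± 0.494 times per kb (SD, n = 6), from 2.61 times in replicate 5 to 3.93 times in replicate 1. Nefl exceeded Nefh by 5.07 ± 0.712 times (SD, n = 6). Transcripts of the heavy chain were thus the scarcest of the 3 chains in each of the 6 libraries. Relations across the 6 libraries were taken on TMM-scaled log2(CPM + 0.5) values, and marker scores were means of such values over a list. For Nefl and Nefm, Pearson's r was 0.996 (exact permutation p = 0.00278, which became 0.0556 after adjustment over 60 relations). Spearman's rho of that pair was 0.943 (exact permutation p = 0.0167, adjusted 0.111). Replicates 1 and 5 lay farthest from the Nefl median, and r was 0.990 when both were left out. Nefm and Nefh had r = 0.930 (exact permutation p = 0.00972, adjusted 0.0833) and rho = 0.943 (exact permutation p = 0.0167, adjusted 0.111), with r = 0.867 without replicates 3 and 5. With library totals in place of TMM-scaled sizes, 2 of the 60 relations passed, Nefl with Nefm and Nefh with Synm (exact permutation, adjusted p = 0.0417 each), and with TMM-scaled sizes 0 of 60 passed, of which 17 had an unadjusted p for r under 0.05.

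Prph (chromosome 15, 99053579 to 99058978, plus strand) was the most abundant neuronal member. Its level was 159.3, 109.5, 275.5, 199.6, 138.6 and 190.9 CPM in replicates 1 to 6. Replicate 3 was highest, as for the neurofilament chains, but the lowest library was replicate 2 and not replicate 5. Ina (chromosome 19, 47014681 to 47025327, plus strand) stood at 6.97, 6.24, 12.0, 10.5, 7.98 and 8.65 CPM, again highest in replicate 3 and lowest in replicate 2. The lowest Ina value rested on 137 counts, with an exact 95% Poisson interval from 5.24 to 7.38 CPM that covers counting error only.

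Prph and Ina thus shared their highest and their lowest library, and Nefl and Prph shared the highest. Prph and Ina had r = 0.921 (exact permutation p = 0.00972, adjusted 0.0833) and rho = 0.943 (exact permutation p = 0.0167, adjusted 0.111), and without replicates 2 and 3 r was 0.709. Nefl and Prph had r = 0.570 (exact permutation p = 0.256, adjusted 0.546) and rho = 0.543 (exact permutation p = 0.297, adjusted 0.660), and r was 0.758 without replicates 1 and 5. All 10 pairs among the 5 neuronal genes had a positive r, from 0.254 to 0.996. The lowest values rested on replicate 3, since without it r was -0.05 for Nefl with Ina and -0.08 for Nefm with Ina. The ratio of Prph to Nefl per kb was 1.21, 1.24, 2.03, 2.15, 2.5 and 1.59 in replicates 1 to 6, so it differed by 2.06 times between replicates 1 and 5.

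Composition of the neuronal filament transcripts followed from these ratios. Prph made up 39.0% and 40.1% of the summed CPM per kb of the 5 genes in replicates 1 and 2, 45.4% in replicate 6, and 50.2%, 53.0% and 56.4% in replicates 3, 4 and 5. Nefl made up 22.6% to 32.3% and Nefm 13.5% to 21.9%, both with the smallest share in replicate 5. Nefh held 4.85% to 5.90% and Ina 1.23% to 2.34%. Replicate 5, with the largest Prph share, also had the highest fibroblast sum (13977 CPM) and the lowest neuron sum (922 CPM), and their part in the shift was not tested.

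**Figure D2:**
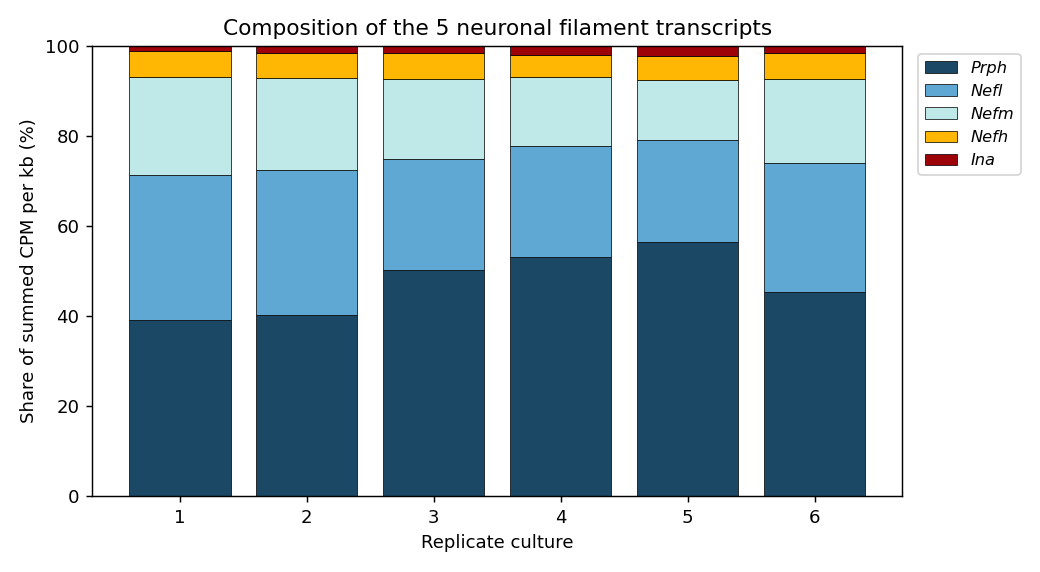
Share of each neuronal filament gene in the summed CPM per kb of the 5 genes, stacked to 100% for each replicate culture. The Prph share runs from 39.0% in replicate 1 to 56.4% in replicate 5, while Nefh stays between 4.85% and 5.90%.

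Against the neuron markers of the same library, each of the 5 neuronal members spread less than its level did, and so did Synm. For this measure the mean log2(CPM per kb + 0.1) of 12 neuronal genes, among them Tubb3, Uchl1 and Stmn2, was subtracted from each gene's own value on that scale. The list held none of the 8 genes. The measure was not computed for Vim and Nes, whose r with the neuron score was -0.10 and -0.19, nor over all genes. Any gene that rises and falls with the neuron markers to a like degree would spread less after such a subtraction. Over the 6 libraries the SD of log2 Nefh was 0.486, and that of its difference from the neuron mean was 0.127. For Nefl the SD went from 0.486 to 0.234, for Nefm from 0.573 to 0.283 and for Prph from 0.461 to 0.227. For Ina the 2 values were 0.341 and 0.313, and for Synm, which had the smallest remaining spread of the 6 genes compared, they were 0.338 and 0.101. On the scale of the relations, log2(CPM + 0.5) with TMM-scaled sizes, Nefh with the neuron score had r = 0.985 (exact permutation p = 0.00278, adjusted 0.0556) and rho = 0.943 (exact permutation p = 0.0167, adjusted 0.111), and r was 0.962 without replicates 3 and 5. Nefm with the neuron score had r = 0.901 (exact permutation p = 0.00694, adjusted 0.0833) and rho = 1.00 (exact permutation p = 0.00278, adjusted 0.0833), and r was 0.852 without replicates 3 and 5.

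Promoter sequences are shown for Prph and Vim, the most abundant members of the neuronal and the glial sets, and for Ina, which shared its highest and lowest library with Prph. RefSeq promoter entries on GRCm38.p6 matched 5 of the 8 genes (Vim, Nes, Synm, Prph and Ina). The 250 bases before the start are printed 5′ to 3′ on the strand of the gene for 3 of them, with motif matches in capitals. The 6 motifs were searched on both strands. The TATA box, which positions the polymerase at the start, was searched as TATAAA. The CCAAT box, bound by the factor NF-Y, has the letters of its name, and the GC box, bound by Sp family factors, was searched as GGGCGG. The E-box of helix-loop-helix factors was searched as CACGTG and the cAMP response element (CRE) as TGACGTCA. The AP-1 site, bound by Fos and Jun proteins, was searched as TGANTCA. The windows are chr15:99054924-99055173 for Prph (plus strand), chr19:47014431-47014680 for Ina (plus strand) and chr2:13574061-13574310 for Vim (plus strand).
Prph: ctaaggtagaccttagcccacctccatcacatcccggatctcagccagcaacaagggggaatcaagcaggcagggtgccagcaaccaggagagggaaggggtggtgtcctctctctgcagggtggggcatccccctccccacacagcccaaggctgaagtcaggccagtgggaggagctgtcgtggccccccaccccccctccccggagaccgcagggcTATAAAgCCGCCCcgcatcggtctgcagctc
Ina: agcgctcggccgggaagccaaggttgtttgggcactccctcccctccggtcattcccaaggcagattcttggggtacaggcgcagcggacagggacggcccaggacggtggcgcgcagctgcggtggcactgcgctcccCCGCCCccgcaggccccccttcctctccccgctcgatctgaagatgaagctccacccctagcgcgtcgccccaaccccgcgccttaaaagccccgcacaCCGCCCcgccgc
Vim: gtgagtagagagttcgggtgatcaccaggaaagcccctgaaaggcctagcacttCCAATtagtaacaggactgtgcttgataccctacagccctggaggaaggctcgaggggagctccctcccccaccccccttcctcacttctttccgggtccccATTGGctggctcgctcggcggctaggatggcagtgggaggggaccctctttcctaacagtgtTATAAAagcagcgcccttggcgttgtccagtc
The Prph window starts its transcript 1595 bases inside the gene as the table draws it, since the table's gene begins further upstream. A TATAAA match lay 31 to 26 bases before the start of Prph and 32 to 27 bases before that of Vim, and 12.4% of 32851 promoter windows hold this match anywhere in 250 bases. Ina held no TATAAA match but had 2 GC boxes, a motif found in 32.7% of windows, and Prph and Nes held 1 and 2. CCAAT matches lay in Vim (2) and Synm (1), against 33.8% of windows, and the E-box match of Synm has a background of 6.02%. No CRE or AP-1 letters were found in the 5 windows, where 1.55% and 6.75% of windows hold them. These matches describe the letters and say nothing of what binds there.

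Vim (chromosome 2, 13574311 to 13582826, plus strand) led the second set of members. Its level was 6462, 5638, 4060, 4261, 4132 and 4395 CPM in replicates 1 to 6. Replicates 1 and 2 were high, and the other 4 libraries lay between 4060 and 4395 CPM. Nes (chromosome 3, 87971093 to 87980451, plus strand) was the steadiest of the 8 genes, at 1022, 844.5, 862, 941, 982 and 889 CPM, a coefficient of variation of 7.59%. Its highest library was replicate 1 and its lowest replicate 2, both among the libraries where Vim was high. Vim exceeded Nes by 17.5 ± 3.40 times per kb (SD, n = 6), from 14.1 times in replicate 5 to 22.3 times in replicate 2.

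The level of Vim ran opposite to the mural cell score over the libraries, a relation that rested on replicates 1 and 2. Vim with the mural cell score had r = -0.94 (exact permutation p = 0.0167, adjusted 0.1) and rho = -0.60 (exact permutation p = 0.242, adjusted 0.604), and r was -0.11 when replicates 1 and 2, which lay farthest from the Vim median, were left out. Prph with Vim had r = -0.56 (exact permutation p = 0.265, adjusted 0.546) and rho = -0.54 (exact permutation p = 0.297, adjusted 0.660), and r was -0.11 without replicates 2 and 3. The summed mural cell level was 307 and 706 CPM in replicates 1 and 2 and 1082 to 2024 CPM in the others, and its part in the Vim levels was not tested. Gfap, the filament protein of astrocytes and of some peripheral glia, stood at 104 and 102 CPM in replicates 1 and 2, at 70.8, 67.5 and 70.2 CPM in replicates 3, 4 and 6, and at 37.3 CPM in replicate 5.

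Synm (chromosome 7, 67730161 to 67759742, minus strand), the large partner protein, had its highest library where Vim had its lowest. Its level was 39.3, 29.6, 53.1, 36.1, 29.0 and 46.0 CPM in replicates 1 to 6, highest in replicate 3 and lowest in replicate 5, as for Nefh. Synm and Nefh had r = 0.987 (exact permutation p = 0.00278, adjusted 0.0556) and rho = 1.00 (exact permutation p = 0.00278, adjusted 0.0833), and r was 0.975 without replicates 3 and 5. Synm with the neuron score had r = 0.968 (exact permutation p = 0.00556, adjusted 0.0833) and rho = 0.943 (exact permutation p = 0.0167, adjusted 0.111), and r was 0.907 without replicates 3 and 5. Synm with the peripheral glial lineage score had r = 0.340 (exact permutation p = 0.524, adjusted 0.774) and rho = 0.200 (exact permutation p = 0.714, adjusted 0.840), and r was -0.32 without replicates 3 and 5. With the fibroblast score r was -0.51 (exact permutation p = 0.331, adjusted 0.601) and rho -0.49 (exact permutation p = 0.356, adjusted 0.667), and r was -0.30 without the same 2 libraries. With the mural cell score r was -0.05 (exact permutation p = 0.960, adjusted 0.960) and rho -0.26 (exact permutation p = 0.658, adjusted 0.823), and r was 0.283 without them. Vim with Synm had r = -0.22 (exact permutation p = 0.676, adjusted 0.790) and rho = -0.14 (exact permutation p = 0.803, adjusted 0.909), and r was 0.016 without replicates 1 and 2. The ratio of Nes to Synm per kb ranged from 20.9 in replicate 3 to 43.4 in replicate 5.

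**Figure D3:**
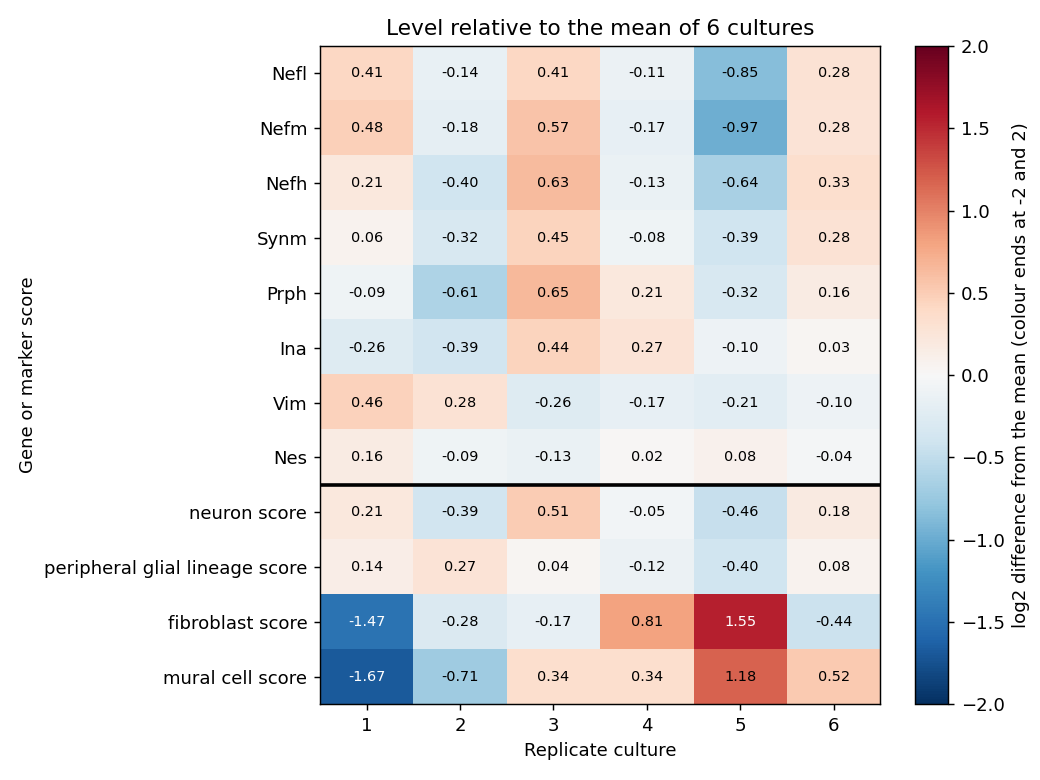
Log2 difference of each gene or marker score from its mean over 6 cultures (TMM-scaled CPM + 0.5), red above and blue below the mean; the line separates genes from marker scores. The rows Nefl, Nefm, Nefh and Synm are highest or next to highest in replicate 3 and lowest in replicate 5, whereas Vim is highest in replicate 1 (0.46).

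The 2 sets of filament genes differed in their share of the libraries. The 5 neuronal genes took 0.0468% ± 0.0136 of counts and Vim, Nes and Synm 0.579% ± 0.101 (SD, n = 6). The second sum exceeded the first by 14.5, 18.9, 7.40, 11.5, 17.5 and 10.2 times in replicates 1 to 6. The ratio was lowest in replicate 3, where the neuronal members were highest, and highest in replicate 2. Per kb, Vim made up 94.3% ± 0.976 of the second sum, Nes 5.55% ± 0.943 and Synm 0.184% ± 0.0636 (SD, n = 6).

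Variation between cultures exceeded counting noise for all 8 genes (chi-square test of 6 counts, Benjamini-Hochberg over 14998 genes, largest adjusted p = 1.33e-09 for Ina), and 76.3% of all genes tested did so. With edgeR's quasi-likelihood fit, 0 of the 8 genes passed the test for a spread beyond the trend at their abundance (adjusted p from 0.901 to 0.995), and 0% of all genes tested passed. The ratio of quasi-dispersion to trend was above 1 for 7 of them, at 25.9 for Nefm, 16.3 for Nefl, 13.97 for Prph, 13.8 for Nefh, 7.05 for Synm, 2.55 for Ina and 1.12 for Vim, and was 0.372 for Nes. At an unadjusted p under 0.05 the counts were 4 of 8, namely Nefl, Nefm, Nefh and Prph, against 5.39% of all genes. The scatter about the trend was estimated from these same genes, with 2.49 prior degrees of freedom, so the test had little power. Even Nefm, with a ratio of 25.9, had an unadjusted quasi-likelihood p of 0.0206. That 0 genes passed after adjustment therefore does not show that any gene lacked such a spread. The share of all genes under 0.05 is likewise set largely by that fit. The biological coefficient of variation, the relative spread of true levels as estimated by edgeR, was 0.275 for Nefl, 0.318 for Nefm, 0.287 for Nefh, 0.265 for Prph and 0.234 for Ina, and 0.202 for Vim, 0.120 for Nes and 0.213 for Synm. The median over all genes tested was 0.153, so Nes lay below it and the other 7 genes above it.

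Overlapping gene spans may limit how firmly 3 of the levels can be read. The overlaps given here run from gene start to gene end, introns included. How much of them lies in exons was not computed. Ina shares 494 bases with Nt5c2 on the opposite strand, which averaged 639 counts per library against 137 to 260 for Ina. Nefh shares 745 bases with Ap1b1, which averaged 1493 counts against 453 to 1162 for Nefh. It also shares 4484 bases with the long noncoding RNA gene Gm35321, which averaged 4.17 counts, and Nefm shares 1253 bases with the noncoding A230070E04Rik, which averaged 10.7 counts. Whether the counting used strand is not given in the sources used here. Reads of any exon bases that Ina, Nefh and Nefm share with such partners therefore cannot be told apart. Counts of Nt5c2, Ap1b1, Gm35321 and A230070E04Rik were fractional in 0 libraries. Counts of Nefl were fractional in 2 libraries and those of Nes in 3, and those of the other 6 genes were whole.

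The other genes of filament structure, handling and transport were described by list. Of 14998 genes tested, 13911 reached 1 CPM in all 6 libraries, and 76.3% varied beyond counting noise. Both shares cover only genes that passed the filter on low counts. The lists of other filaments, keratins and linkers also hold genes that did not pass it. Of 5 other cytoplasmic filament genes, 2 reached 1 CPM in all 6 libraries, namely Gfap at 18.4 ± 6.09 CPM per kb and Sync, a partner of desmin, at 1.89 ± 0.361 CPM per kb (SD, n = 6), and both varied beyond counting noise. Des, the filament protein of muscle and mural cells, averaged 0.456 ± 0.319 CPM per kb and its lowest and highest libraries were replicate 1 (0.174 CPM) and replicate 3 (2.68 CPM). All 3 nuclear lamin genes were detected and varied beyond counting noise, with Lmna, the A-type lamin of the nuclear envelope, at 138.6 ± 18.1 CPM per kb, near the level of Nes. Lmnb1 averaged 9.84 and Lmnb2 4.88 CPM per kb.

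Keratins, the filaments of epithelia, were scarce. Of 15 keratin genes, 2 (Krt80 and Krt10) reached 1 CPM in all 6 libraries and passed the filter on low counts. Of these 2, 1 was called by the chi-square test, which called 76.3% of all genes tested. The highest per kb were Krt80 at 1.25, Krt19 at 0.821 and Krt7 at 0.329 CPM per kb, and the list's median was 0.0137 CPM per kb. Krt19 and Krt7 had 0 counts in replicate 1 and did not pass the filter. Krt4 and Krt5 had 0 counts in all 6 libraries, which allows up to 0.131 to 0.149 CPM per library at 3 counts. Of 8 plakins and other linkers, which tie filaments to junctions and to other parts of the cytoskeleton, 3 were detected and called: Plec at 48.1 ± 8.05, Dst at 28.7 and Macf1 at 4.02 CPM per kb. Dst counts were fractional in all 6 libraries and are less certain. The desmosomal and epidermal linkers of that list, Dsp, Ppl, Evpl, Eppk1 and Flg, averaged at most 0.227 CPM each.

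Genes that modify, fold, degrade or carry filaments were described next. All 20 kinases, phosphatases and chaperones reached 1 CPM in all libraries, as did 13911 of 14998 genes tested, and were called by the chi-square test, as were 76.3% of genes tested. Hspa8, a constitutive heat shock protein, led them at 466 CPM per kb (fractional in all 6 libraries), followed by Cryab, a small heat shock protein known to bind filaments, at 378 ± 41.1, and Mapk3 at 260 CPM per kb. Cdk5r1, the activator of the neurofilament kinase Cdk5, averaged 14.8 ± 4.16 CPM (SD, n = 6). Of 8 turnover genes, all were detected and 7 were called. Capn2, a calcium-dependent protease, led at 127 CPM per kb. All 8 motor genes were detected and called. Kif5b, the kinesin found in most cells, led at 70.6 CPM per kb, followed by Dync1h1 at 54.4 and Klc1 at 42.4 CPM per kb. Kif5a, the neuronal kinesin linked to neurofilament transport, stood at 205.8, 114.4, 238.6, 165.1, 134.9 and 172.8 CPM in replicates 1 to 6, highest in replicate 3 and lowest in replicate 2, as for Prph. The list medians were 24.4, 14.2 and 20.6 CPM per kb for the kinase, turnover and motor lists, against 7.20 over all genes tested.

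**Figure D4:**
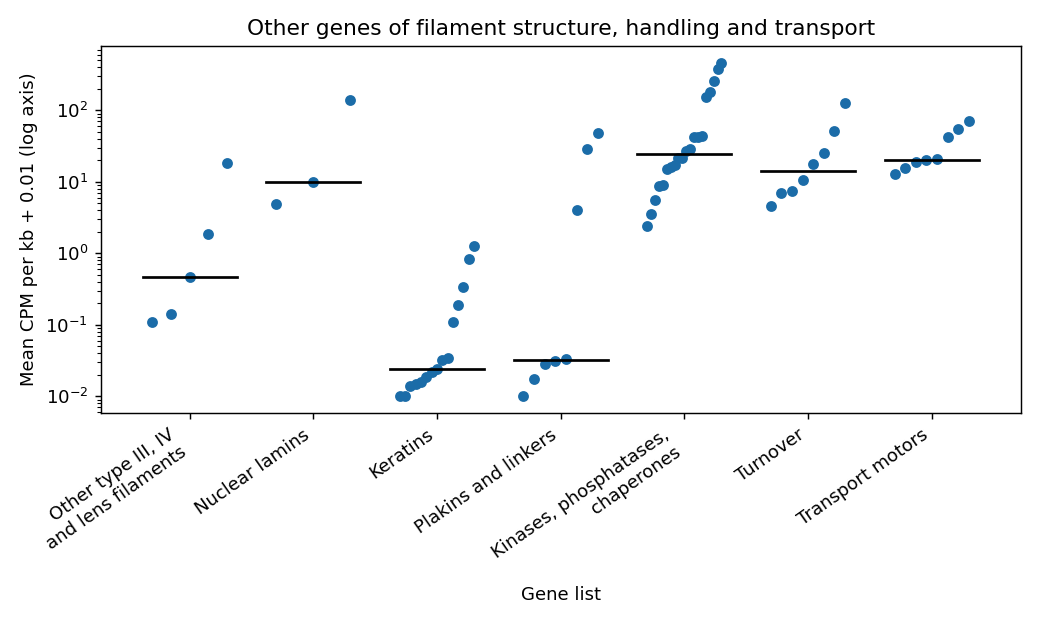
Mean level of every gene in 7 lists of filament-related genes, in CPM per kb plus 0.01 on a log axis, with a black bar at the list median. Keratins lie lowest with a median of 0.0137 CPM per kb, and the lists for kinases, turnover and motors have medians of 24.4, 14.2 and 20.6.

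The genes with the pattern most like the members' were ranked by Pearson's r over 6 libraries among 8083 tested genes with a mean of at least 20 CPM, as a description. For the mean of the 5 neuronal members they were Sult4a1, a sulfotransferase known from neurons, at r = 0.999, then Gnaq, Snhg14, Slc4a8 and Dgkq at 0.994, 0.992, 0.991 and 0.989. Sult4a1 stood at 56.2, 41.3, 79.3, 56.6, 38.8 and 62.1 CPM in replicates 1 to 6. For Vim they were Lingo1 at r = 0.993, then Ube2g1, Fbxl17, H3f3c and Calcoco1 at 0.991, 0.989, 0.987 and 0.986. Lingo1 stood at 196.9, 154.8, 73.0, 74.7, 67.8 and 91.1 CPM, with replicates 1 and 2 highest, as for Vim. In all, 169 of the 8083 genes exceeded r = 0.9 for the neuronal mean and 271 for Vim.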

How the data were processed

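Poly-A RNA of 6 DRG cultures was sequenced as stranded libraries. The submitters' processing notes name bcl2fastq 2.20.0.422, cutadapt 2.5, STAR 2.7.2b, featureCounts 1.6.4 of Subread and GRCm38.p6; settings for strand and for reads matching several places are not given in the sources used here. The deposited unit was the estimated count per gene, unscaled and partly fractional, with a combined exon length in bases; 0 further columns held per-sample values. From these, CPM (counts as parts per 1000000 of the column total) and CPM per kb of combined exon length were computed. Counts were rounded for the fits in R 4.3.3 (edgeR 4.0.16, with size factors of DESeq2 1.42.0 as an alternative), filtered with filterByExpr (14998 genes) and TMM-scaled. Level differences used exact sign-flip permutation over 64 sign patterns; relations used log2(CPM + 0.5) on TMM-scaled sizes and exact permutation over 720 pairings, adjusted over 60 relations. The all-gene tests were run on simulated data with known changes. A required recovery of the changed genes was set only for the chi-square test under counting noise alone. A residual quasi-dispersion was divided by its trended value for the test beyond the trend. The labels give no batch.

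The members and gene lists were chosen with earlier results of these data known. Named genes were the members, the 3 highest genes of each list, a few genes fixed by role (1 of them is not reported here), and the 5 most similar genes; others were named after their values were seen, namely those listed for low counts and those compared by their highest and lowest library. GENCODE release M21 lengths and the joint omission of replicates 1 and 5 were alternatives chosen after seeing the data; the other alternatives were column totals, DESeq2 size factors, TPM scaling, rounding, other pseudocounts, no length division, no low-count filter, other detection thresholds and leaving out each replicate.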

Additional observations from a re-analysis of the deposited data

How the results depend on the processing

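No paired comparison between conditions was possible because all samples belonged to 1 group. Differences in level between genes were paired within a library. Scaling CPM per kb to its sum over all genes (TPM) raised all levels, to 8234 for Vim, 471 for Nes, 239 for Prph, 139 for Nefl, 92.2 for Nefm, 27.8 for Nefh, 15.5 for Synm and 8.37 for Ina, with the same order. Summed per kb, Vim, Nes and Synm exceeded the neuronal genes by 18.6 ± 6.48 times (SD, n = 6) in place of 13.3 ± 4.42. Past the threshold were 26 of 28 pairs without division by length, where Nefh minus Synm reversed to -0.17, and 27 of 28 with GENCODE lengths; the other settings gave 28. With column totals, 2 relations passed in place of 0. At 5 CPM 0 keratins were detected in place of 2. All 8 genes varied beyond counting noise under each alternative run, and 0 genes passed the test for a spread beyond the trend in each edgeR fit, with 799 to 1468 genes at an unadjusted p under 0.05. Leaving out 1 library at a time reversed none of the 28 level differences. For these, 5 libraries cannot give a sign-flip p under 0.0625, so only the size was compared. The same omissions changed the sign of r for many of the relations, none of which passed. Among them were Vim with Synm, Nefl with Ina, Nefm with Ina and Synm with the glial lineage and mural cell scores. Others were Vim with Nes (r from -0.33 to 0.742) and Nefh with the glial lineage score (-0.27 to 0.889). Among the 8 genes, Ina had the fewest counts; for a gene with 0 counts, the limit was 0.131 to 0.149 CPM per library.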

Other observations

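Markers of sensory neuron subtypes, which differ in filament content in the ganglion, were also counted. Of 10 genes of the small and nociceptive list, 9 reached 1 CPM in all 6 libraries, led per kb by Calca (the neuropeptide CGRP) at 46.4 CPM per kb, Ret (the GDNF family co-receptor) at 21.7 and P2rx3 (an ATP-gated channel) at 18.6. P2rx3 ranged from 76.8 to 209 CPM. Of 10 genes of the large and myelinated list, 7 reached 1 CPM in all 6 libraries, led by Spp1, Thy1 and Kcna1 at 630, 81.6 and 55.9 CPM per kb. Among genes that passed the filter on low counts, 13911 of 14998 reached it, and both lists also hold genes that did not pass. Spp1, which other cells also express, had its lowest level in replicate 1 (135.6 CPM) and its highest in replicate 5 (2596 CPM), in the same direction as the fibroblast and macrophage sums, and its source was not tested. Thy1, also made by fibroblasts, was lowest in replicate 1 (69.6 CPM) and highest in replicate 5 (313 CPM), where the neuron sum was lowest, and its source was not tested either. Kcna1 stood at 568, 567, 577, 476, 397 and 422 CPM in replicates 1 to 6. It was thus high in replicate 2, where the glial lineage sum was highest (7103 CPM) and the neuron sum was 1089 CPM. In replicate 5 Kcna1 and both sums were lowest, and the source of Kcna1 was not tested. Pvalb, a marker of proprioceptive neurons named here after its value was seen, had at most 3 counts in any library.

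The summed small-neuron list stood at 639, 400.4, 899, 672, 587 and 624 CPM in replicates 1 to 6, highest in replicate 3 and lowest in replicate 2. Prph had the same highest and lowest libraries, and so did the general neuron markers Elavl4, Rbfox3, Isl1 and Map2, whereas P2rx3, Ret, Runx1 and Mrgprd of the small-neuron list did not.

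Across 21 measures of the filament genes (levels, sums and ratios) in 6 libraries, 0 had a library that passed Dixon's test for an outlying value at its 95% critical value. Chance alone would give about 1.05 such results.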
